A study of Mus musculus with 4 samples.

Results

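De novo lipogenesis, the making of fatty acids from acetyl-CoA, was followed in the stromal vascular cells of mouse inguinal white adipose tissue through 10 genes: Fasn, Acaca, Acly, Acss2, Scd1, Scd2, Elovl6, Srebf1, Mlxipl and Me1. The genes were taken by symbol, and all 10 were found among the 31053 features of the deposited matrices. Their unique molecular identifiers (UMIs, counted transcripts) were summed over classes of cells gated by marker genes. The 4 single-cell libraries came from pooled cells of 7 control mice, for which the design text names the strain C57BL/6, and of 8 iAdFASNKO mice, for which no strain is given. The labels do not spell out iAdFASNKO. From knowledge outside the labels, it is a line in which tamoxifen removes Fasn from adipocytes through an adiponectin-driven Cre. The age and sex of the mice, the alleles of the controls and any tamoxifen given to either pool are unknown here. Each pool was split by magnetic beads into lineage-marker-positive cells (Lin+) and the remaining cells (Lin-). This gave 1 library for each genotype and fraction. The genotype of each matrix rests on its name alone, and a wrong name would turn every direction given here.

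Fatty acid synthesis starts in the cytosol with acetyl-CoA, which ATP citrate lyase (Acly) makes from citrate and acetyl-CoA synthetase (Acss2) makes from acetate. Acetyl-CoA carboxylase (Acaca) turns it into malonyl-CoA, and fatty acid synthase (Fasn) builds palmitate with NADPH that malic enzyme (Me1) helps to supply. Elovl6 lengthens palmitate, and the stearoyl-CoA desaturases Scd1 and Scd2 add a double bond. The transcription factors SREBP1 (from Srebf1) and ChREBP (from Mlxipl) drive these genes in response to insulin, sterols and glucose. In white fat the pathway is best known from mature adipocytes, which float off when tissue is digested and spun, and which the pelleted stromal cells should therefore lack. Fasn UMIs in these libraries were not used as a check of the deletion, since reads from the 3' end of a transcript can lie outside the deleted exons.

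Of 18336 barcodes, 14727 cells were used, between 2915 and 4426 in a library. Total UMIs ranged from 21622291 to 33016494. Median UMIs per cell were 9121 and 4150 in Lin- (control, iAdFASNKO) and 5358 and 3298 in Lin+, so the iAdFASNKO libraries were the shallower per cell. At most 108 barcodes were shared between any pair of libraries, and 82 to 140 of the used cells in a library carried a barcode that another library also held. With 1 library per group no difference has a replicate check: every comparison is of these libraries, no test was run, and intervals cover counting error only.

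The letters upstream of 4 genes are shown because Fasn and Mlxipl were called lower and higher in progenitor-like cells, Acly supplies the same pathway and was not called, and Hmgcs1, a cholesterol synthesis gene, was lower with Fasn. Each window is the 250 bases before the RefSeq start on the gene's strand (GRCm38.p6). Capitals mark ATCACCC (a sterol element core), CACGTG (an E-box) or CCAAT on either strand.
Fasn, chr11:120824548-120824797, minus strand: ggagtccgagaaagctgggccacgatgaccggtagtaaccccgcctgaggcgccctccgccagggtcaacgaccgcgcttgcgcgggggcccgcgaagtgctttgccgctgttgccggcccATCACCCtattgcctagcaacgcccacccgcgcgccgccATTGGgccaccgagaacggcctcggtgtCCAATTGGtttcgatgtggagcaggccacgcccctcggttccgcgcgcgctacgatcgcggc
Acly, chr11:100528001-100528250, minus strand: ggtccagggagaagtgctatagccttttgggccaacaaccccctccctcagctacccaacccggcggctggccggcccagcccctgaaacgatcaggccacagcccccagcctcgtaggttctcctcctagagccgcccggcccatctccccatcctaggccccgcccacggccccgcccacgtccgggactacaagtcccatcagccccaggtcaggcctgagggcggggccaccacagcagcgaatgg
Mlxipl, chr5:135089640-135089889, plus strand: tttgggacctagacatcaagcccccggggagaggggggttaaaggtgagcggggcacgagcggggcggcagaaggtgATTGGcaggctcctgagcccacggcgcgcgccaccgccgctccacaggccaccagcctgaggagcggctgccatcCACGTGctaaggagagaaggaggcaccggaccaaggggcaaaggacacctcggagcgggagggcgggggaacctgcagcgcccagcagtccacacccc
Hmgcs1, chr13:119690101-119690350, plus strand: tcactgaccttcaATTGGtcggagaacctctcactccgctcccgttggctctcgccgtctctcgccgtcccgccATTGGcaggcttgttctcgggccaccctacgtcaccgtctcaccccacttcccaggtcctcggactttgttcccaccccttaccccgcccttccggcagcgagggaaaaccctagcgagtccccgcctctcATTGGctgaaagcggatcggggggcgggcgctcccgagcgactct
In the Fasn window ATCACCC began 129 bases before the start. CCAAT began 90, 62 and 59 bases before it, the last pair overlapping on opposite strands. The Acly window held none of the capitalised motifs and 4 copies of GGGCGG (a GC box, not capitalised). In the Mlxipl window CACGTG began 98 bases and CCAAT 173 bases before the start, and another RefSeq start of Mlxipl had no such match. The Hmgcs1 window had CCAAT at 237, 176 and 45 bases before the start. Over all 32851 windows of the same length, ATCACCC was found in 2.28%, CACGTG in 6.02%, CCAAT in 33.8% and GGGCGG in 32.7%. Among the 10 genes, 8 matched the promoter table (not Scd1 and Scd2): 1 had ATCACCC, 1 had CACGTG, 5 had CCAAT and 5 had GGGCGG in any of their windows. Of 24 cholesterol synthesis genes 16 matched, of which 2 had ATCACCC, 3 CACGTG, 15 CCAAT and 15 GGGCGG. These are matches of letters, not sites shown to be bound.

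In progenitor-like cells, Fasn was lower in the iAdFASNKO library of both fractions, while the enzymes before and after it were not called. These cells, fibroblast-like adipose precursors, made up most of both Lin- libraries. They were also 1656 of 2915 used cells in Lin+ control and 1412 of 4426 in Lin+ iAdFASNKO, so Lin+ was not only immune cells. Fasn (ENSMUSG00000025153, chromosome 11, 120805846 to 120824547, mm10) had 989 UMIs in the Lin- control and 375 in the Lin- iAdFASNKO library. Per 1000000 UMIs of the class (CPM), control stood at 44.1 (95% interval 41.4 to 46.9) and iAdFASNKO at 28.8 (26.0 to 31.9). In Lin+ it had 600 and 254 UMIs, which made 41.2 CPM (38 to 44.7) for control and 24.6 CPM (21.6 to 27.8) for iAdFASNKO. Both control libraries thus lay above both iAdFASNKO libraries. The CPM ratio of iAdFASNKO over control was 0.654 (0.579 to 0.737) in Lin- and 0.596 (0.512 to 0.691) in Lin+. A gene was called with at least 20 UMIs over both libraries, a CPM ratio past 1.5 or its inverse, and an interval without 1. By this rule 1 of the 10 genes was lower in Lin-, Fasn, where 5.77% of 12935 measured genes were called lower, and 1 was higher, Mlxipl, where 9.18% were. In Lin+ the same 2 genes were called, where 3.84% of 12645 genes were lower and 9.70% higher. The count of called genes was thus near the background in each direction. The median log2 ratio of the 10 genes was -0.07 in Lin- and 0.09 in Lin+, against 0.04 and 0.13 for all measured genes. The Fasn ratio missed the fold in Lin- without cells that held a UMI of an adipocyte marker (0.680). With progenitor subclusters weighted equally it missed the fold in both fractions, at 0.671 in Lin- and 0.704 (0.529 to 0.937) in Lin+.

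**Figure D1:**
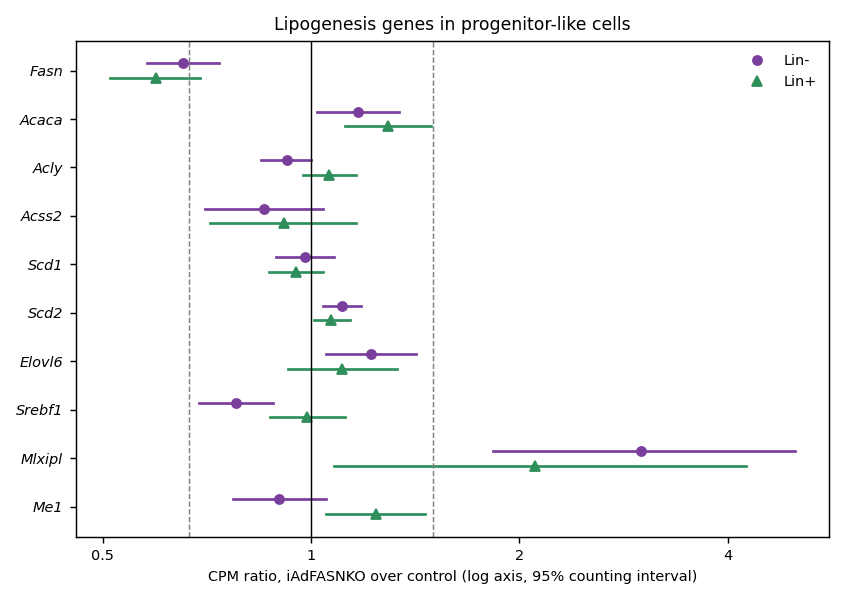
CPM ratio of iAdFASNKO over control (log axis) for the 10 lipogenesis genes in progenitor-like cells, with 95% counting intervals, for the Lin- and the Lin+ libraries. Fasn lies at 0.654 and 0.596 and Mlxipl at 3.00 and 2.11, and the other 8 genes lie between 0.779 and 1.29.

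The suppliers of acetyl-CoA did not pass the call. Acly (chromosome 11, 100476353 to 100528000) was at 69.5 and 64.1 CPM in Lin- (control, iAdFASNKO) and at 83.2 and 88.3 CPM in Lin+. Its ratios were 0.923 (0.847 to 1.00) and 1.06 (0.972 to 1.16), and these intervals do not reach the Fasn ratios. Acss2 (chromosome 2, 155517948 to 155585724) was at 14.3 and 12.2 CPM in Lin- and at 12.0 and 10.9 CPM in Lin+, with ratios of 0.854 (0.702 to 1.04) and 0.914 (0.715 to 1.16).

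Acaca, the step directly before Fasn, went the other way by a small amount. Acaca (chromosome 11, 84129672 to 84401651) was at 24.0 and 28.0 CPM in Lin- and at 27.2 and 35.2 CPM in Lin+. The ratios of 1.17 (1.02 to 1.34) and 1.29 (1.12 to 1.49) had intervals above 1 but did not reach the fold of the call. In Lin- the Acaca ratio was 0.994 as a mean of cells scaled to a common total and 0.964 with subclusters weighted equally. Me1 (chromosome 9, 86581371 to 86695953), the NADPH-yielding malic enzyme, was at 21.7 and 19.5 CPM in Lin- and at 21.8 and 27.1 CPM in Lin+. Its ratios of 0.899 (0.770 to 1.05) and 1.24 (1.05 to 1.46) lay on opposite sides of 1, and the difference between the fractions was not tested.

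The enzymes that act on palmitate were at similar levels in both genotypes. Elovl6 (chromosome 3, 129532355 to 129638495) was at 18.6 and 22.8 CPM in Lin- and at 19.4 and 21.6 CPM in Lin+, with ratios of 1.22 (1.05 to 1.42) and 1.11 (0.926 to 1.33). Scd1 (chromosome 19, 44394455 to 44407879) was at 50.1 and 49.2 CPM in Lin- and at 84.7 and 80.5 CPM in Lin+. Its ratios were 0.981 (0.889 to 1.08) and 0.951 (0.870 to 1.04), so the level went with the fraction and not with the genotype. With subclusters weighted equally, however, the Scd1 ratio in Lin- was 0.652 (0.558 to 0.761), which passes the call. Scd2 (chromosome 19, 44293674 to 44306864) was at 101 and 112 CPM in Lin- and at 149 and 160 CPM in Lin+, with ratios of 1.11 (1.04 to 1.18) and 1.07 (1.01 to 1.14). Scd1, Scd2, Scd3 and Scd4 are related copies, and reads that match more than 1 of them could have been split or dropped by the authors' counting.

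The transcription factors differed from each other. Srebf1 (chromosome 11, 60199089 to 60222581) stood at 37.0 and 28.8 CPM in Lin-, and its ratio, 0.779 (0.688 to 0.881), fell short of the fold. In Lin+ its levels were 42.5 and 42.0 CPM, with the ratio at 0.988 (0.872 to 1.12). Mlxipl (chromosome 5, 135089890 to 135138382) was rare in every library. It had 27 UMIs in the Lin- control library (1.20 CPM) and 47 in the Lin- iAdFASNKO library (3.61 CPM), a ratio of 3.00 (1.83 to 5.01). In Lin+ it had 16 UMIs (1.10 CPM) and 24 UMIs (2.32 CPM), a ratio of 2.11 (1.08 to 4.25). No single cell carried these counts: the highest cell of a library had 1 to 3 Mlxipl UMIs. The Lin- call was kept under the alternatives that were run, but after thinning it depended on the random draw. The draw used for that alternative gave a ratio of 3.53 (1.25 to 12.2), and another draw gave 7 and 11 UMIs, fewer than the call needs. The Lin+ call was lost under 4 of them, among them a stricter cell filter (ratio 1.86, 0.904 to 3.90).

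Because the control cells were deeper, shares of cells with a UMI were also read after each progenitor-like cell was thinned to 2000 UMIs. This kept 2043 of 2191 and 1967 of 2227 Lin- cells (control, iAdFASNKO), and 1497 of 1656 and 1252 of 1412 Lin+ cells. Before thinning, 32.3% and 13.7% of Lin- and 26.6% and 15.2% of Lin+ cells had a Fasn UMI, at median depths of 10421 and 5437 and of 8482 and 6731 UMIs. After thinning, the Fasn shares were 7.98% (6.84 to 9.24) and 5.64% (4.66 to 6.76) in Lin-, and 7.55% (6.26 to 9.01) and 4.87% (3.75 to 6.21) in Lin+. The gap narrowed with equal depth, kept its direction, and the intervals did not overlap. For background, free RNA gives UMIs in cells that do not express a gene. Macrophage-like cells had thinned Fasn shares of 1.72% and 0% and B cell-like cells of 2.84% and 2.23%, all below the progenitor-like shares, while Lin+ T cell-like cells had 4.05% and 4.11%. Lin+ cDC2-like cells had 5.56% and 2.50%, also below the progenitor-like shares of their libraries. Not every other class was below them. Lin+ NK-like cells, with 63 and 34 thinned cells, had 7.94% (2.63 to 17.6) and 5.88% (0.720 to 19.7). In Lin-, Schwann-like cells had 14.8% (6.98 to 26.2) and 16.7% (7.48 to 30.2), from 61 and 48 thinned cells. Perineurial-like cells had 9.09% (1.92 to 24.3) and 11.1% (4.59 to 21.6). Of these intervals, only that of Schwann-like cells in Lin- iAdFASNKO lay apart from the progenitor-like one. Thinned Srebf1 shares were 7.29% and 5.44% in Lin- and 8.15% and 7.99% in Lin+. Mlxipl was seen in 0.240% to 0.356% of thinned cells, too few to read a difference. For the other 9 genes the thinned intervals of the genotypes overlapped in both fractions, for example for Scd1 in Lin+ at 16.2% (14.4 to 18.2) and 13.5% (11.7 to 15.5).

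**Figure D2:**
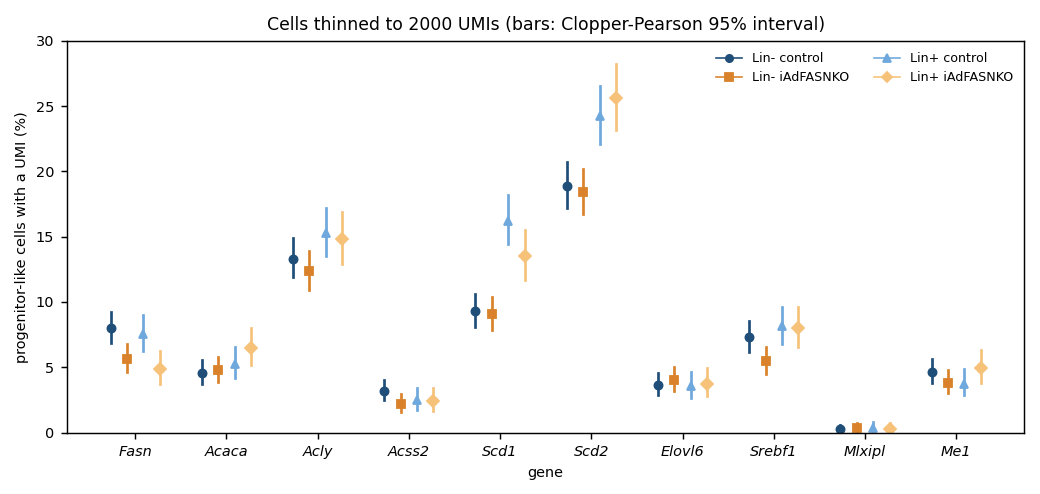
Share of progenitor-like cells with a UMI of each gene (percent) after thinning every cell to 2000 UMIs, for the 4 libraries, with Clopper-Pearson 95% intervals as bars. For Fasn both control libraries (7.98% and 7.55%) lie above both iAdFASNKO libraries (5.64% and 4.87%). For the other 9 genes the intervals of the genotypes overlap in both fractions.

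The progenitor-like class was not the same mix of cells in each library, which matters for a sum over the class. Clustered again, Lin- control progenitor-like cells were 45.2% subcluster P1 (named by Cxcl14 and Smoc2), 16.9% P6 (committed preadipocyte markers) and 13.1% P5 (unnamed, led by Sult1e1 and Gadd45g). Lin- iAdFASNKO cells were 32.1% P3 and 30.5% P4, both named committed preadipocyte, and only 2.16% P1 and 1.48% P6. The marker lists do not separate these names fully. P3 had 4 of 7 committed preadipocyte markers on, as did P1, and 4 of 5 markers of the Cxcl14 and Smoc2 list, where P1 had 5 of 5. P4 had 6 of 7 and 4 of 5, and P6 had 6 of 7 and 5 of 5. In Lin+ the interstitial subcluster P0, led by Smpd3, Dpp4 and Pi16, held 36.0% of control and 56.0% of iAdFASNKO cells. The 10 genes and the pathway lists were left out of the clustering.

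Fasn was lower within subclusters too. Of 15 comparisons with at least 30 cells on both sides, Fasn was measured in 12, and its ratio lay below 1 in all 12, from 0.452 to 0.939. These comparisons come from the same 4 libraries and are not independent. In P0 of Lin+ the 596 control cells had 39.5 CPM and the 791 iAdFASNKO cells 24.6 CPM, for a ratio of 0.623 (0.50 to 0.774), where 3.72% of genes were called lower. In P1 of Lin- 991 control cells had 47.6 CPM and 48 iAdFASNKO cells 21.5 CPM (ratio 0.452, 0.165 to 0.990), with 3.02% of genes called lower. The iAdFASNKO side of P1 rests on 6 Fasn UMIs. In P3 of Lin- the levels were 48.2 and 25.1 CPM (ratio 0.521, 0.321 to 0.884; 4.71% of genes lower). In P5 of Lin+ they were 55.8 and 27.5 CPM (ratio 0.492, 0.247 to 0.893; 2.59% lower). These 4 comparisons were called and 8 were not; over the 15 comparisons of subclusters, 4.76% of measured genes were called lower and 5.29% higher. The committed preadipocyte subcluster P4 of Lin- was the closest to parity, where 40 control cells had 37.0 CPM (21.9 to 58.5) and 680 iAdFASNKO cells 34.8 CPM (29.6 to 40.5). Among subclusters, CD142-marked P2 (F3, Clec11a and Gdf10 cells) was low in Fasn in Lin-, at 20.1 and 13.9 CPM.

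**Figure D3:**
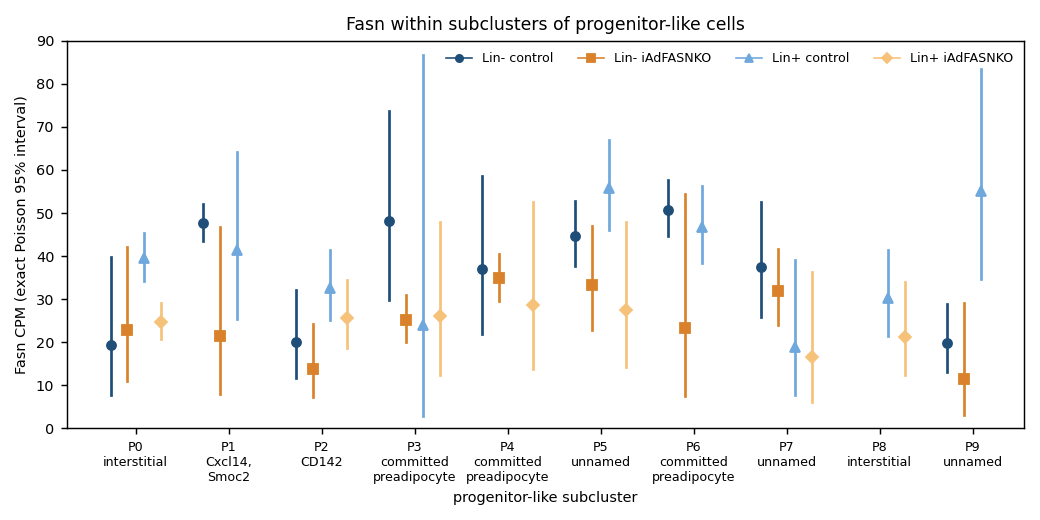
Fasn CPM within each progenitor-like subcluster and library with at least 30 cells, with exact Poisson 95% intervals as bars; the fill and shape of a point give the library. Control points lie above the iAdFASNKO point of the same fraction in 13 of the 15 subcluster comparisons, and not in P0 of Lin- and P3 of Lin+, where too few UMIs were counted to measure a ratio.

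The other genes gave scattered calls within subclusters. Scd1 was lower in P4 of Lin-, with 162 CPM for control and 49.3 CPM for iAdFASNKO (ratio 0.303, 0.234 to 0.397; 8.84% of genes called lower), and 21 of the 79 control UMIs came from 1 of the 40 cells. It was also lower in P2 of Lin+, at 57.6 and 36.8 CPM (0.639, 0.462 to 0.876; 3.21% lower). Scd2 was higher in P3 of Lin-, at 94.2 and 143 CPM (1.52, 1.10 to 2.14; 3.69% of genes higher). Acly was lower in P0 of Lin-, at 136 and 77.8 CPM (0.574, 0.359 to 0.907; 6.10% lower). Elovl6 was lower in P5 of Lin-, at 22.0 and 11.5 CPM (0.520, 0.248 to 0.989; 4.85% lower), and higher in P7 of Lin-, at 15.9 and 30.1 CPM (1.90, 1.03 to 3.71; 5.91% higher). None of these 6 calls was made in the other fraction of the same subcluster, but not all could have been. P4 of Lin+ had 6 control cells and was not compared, and Elovl6 had too few UMIs to be measured in P7 of Lin+.

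Levels of Scd1, Acly and Elovl6 also differed between kinds of progenitor within a library. In the interstitial subcluster P8 of Lin+, Scd1 reached 147 CPM (126 to 169) for control and 121 CPM (98.1 to 148) for iAdFASNKO, against 57.6 CPM (47.6 to 69.1) and 36.8 CPM (28.3 to 47.1) in P2. Acly showed the same order, with 116 CPM (98.4 to 136) and 107 CPM (85.8 to 132) in P8 and 47.6 CPM (38.5 to 58.2) and 57.2 CPM (46.5 to 69.7) in P2. In the Lin- control library Elovl6 was lowest in P9 (unnamed, led by Crabp1 and Lgr5), with 3.67 CPM (1.19 to 8.57), against 22.1 CPM (9.55 to 43.6) in P0.

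Several other measures also differed between the libraries of the genotypes, and their part in the Fasn difference was not tested. The 12 defining adipocyte markers summed to 32.4 and 50.7 CPM in Lin- progenitor-like cells (control, iAdFASNKO) and to 27.2 and 11.8 CPM in Lin+. Of the 12 markers, 4, 1, 5 and 7 were at 0 in the Lin- control, Lin- iAdFASNKO, Lin+ control and Lin+ iAdFASNKO libraries. Car3, a carbonic anhydrase that skeletal muscle also expresses, was the largest item of the sum in 3 of the 4 libraries, at 22.9 and 39.2 CPM in Lin- and 20.2 and 4.54 CPM in Lin+. In Lin+ iAdFASNKO the lipase gene Lipe was larger, at 6.57 CPM. Adipoq, the adipocyte hormone adiponectin, had 1, 12, 0 and 0 UMIs, Plin1, a lipid droplet coat protein, had 0, 17, 3 and 1, and Lep (leptin) had none. Immediate early and heat shock genes known to respond to tissue digestion, 10 in a list written for this comparison, summed to 17951 and 12396 CPM in Lin- and to 8797 and 5610 CPM in Lin+. Of the 10, 5 were called lower in Lin- and 7 in Lin+, and none higher, where 5.77% and 3.84% of all genes were called lower. Median mitochondrial shares of progenitor-like cells were 3.14% and 1.40% in Lin- and 3.45% and 1.78% in Lin+. Median depth went the same way, as given above.

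Many cholesterol synthesis genes, which SREBP2 drives, were called lower in the same libraries. Of 24 measured genes 10 were called lower and none higher in Lin-, with a median log2 ratio of -0.51, and 13 were lower and none higher in Lin+, with a median of -0.63. Over all measured genes 5.77% were called lower and 9.18% higher in Lin-, and 3.84% and 9.70% in Lin+. Hmgcs1, which makes the HMG-CoA of the mevalonate pathway, was at 472 and 291 CPM in Lin- (ratio 0.617, 0.594 to 0.640) and at 146 and 67.6 CPM in Lin+ (0.462, 0.423 to 0.503). Squalene epoxidase (Sqle) had ratios of 0.492 (0.444 to 0.546) and 0.360 (0.292 to 0.441). The isomerase Idi1 had ratios of 0.535 and 0.447. Fdps, which makes farnesyl diphosphate, had ratios of 0.530 (0.488 to 0.575) in Lin- and 0.507 (0.437 to 0.585) in Lin+. The list as a sum went from 1746 to 1101 CPM in Lin- and from 807 to 465 CPM in Lin+. For the 10 lipogenesis genes the sums were 382 and 369 CPM and 482 and 493 CPM.

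Of 14 measured regulators of SREBP and ChREBP none was called lower in either fraction, where 5.77% and 3.84% of all genes were, so a count of 0 is near that background. Prkaa2, a catalytic subunit of the energy sensor AMPK, was called higher in Lin-, at 6.11 and 17.3 CPM (ratio 2.83, 2.28 to 3.53). This was the 1 higher call of the list in Lin-, where 9.18% of all genes were called higher, so the count is near that background. In Lin+ Prkaa2 was not called (1.42, 1.13 to 1.77), and 0 regulators were higher, where 9.70% of all genes were. Insig1, the sterol-sensing retention protein and itself an SREBP target, had ratios of 0.761 (0.720 to 0.804) and 0.739 (0.662 to 0.825), which did not reach the fold. The medians of the list were -0.30 and 0.08, against 0.04 and 0.13 for all genes.

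The lists of acyl-CoA and NADPH supply had at most 1 call in each direction, which is near the shares over all genes (5.77% lower and 9.18% higher in Lin-, 3.84% and 9.70% in Lin+). Of 14 genes of acyl-CoA and citrate supply, Acacb, the mitochondrial acetyl-CoA carboxylase that restrains fatty acid oxidation, was called lower in both fractions, with ratios of 0.626 (0.435 to 0.887) and 0.535 (0.298 to 0.923). The acyl-CoA synthetase Acsl4 was called higher in Lin- (1.65, 1.44 to 1.88) and the short-chain synthetase Acss3 in Lin+ (1.87, 1.68 to 2.09). Of 13 NADPH genes, the transaldolase Taldo1 was lower in Lin- (0.640, 0.583 to 0.702), and the mitochondrial malic enzyme Me3 was higher in Lin+, at 4.53 and 13.8 CPM (3.05, 2.26 to 4.15). No gene of elongation and desaturation was called, of 11 measured in Lin- and 10 in Lin+.

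Triglyceride assembly and droplet genes had 4 lower and 1 higher call of 13 measured in Lin-, and 2 lower and none higher in Lin+. The same shares over all genes apply, and the 1 higher call is near them. Plin2, which coats small lipid droplets in many cells, was at 425 and 244 CPM in Lin- (ratio 0.574, 0.551 to 0.598) and at 136 and 78.3 CPM in Lin+ (0.577, 0.531 to 0.626). Plin4, another droplet coat protein, had ratios of 0.587 (0.511 to 0.672) and 0.253 (0.188 to 0.336). The glycerol-phosphate acyltransferase Gpat3 was lower in Lin- (0.395, 0.237 to 0.633). Of the acyltransferases of the next step, Agpat2 was also lower in Lin- (0.628, 0.527 to 0.746) and Agpat1 higher (1.55, 1.32 to 1.81). Within each fraction, depth, mitochondrial share and the sum of digestion-response genes were lower in iAdFASNKO, as were Plin2, Plin4 and Fasn. Their part in these differences was not tested.

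**Figure D4:**
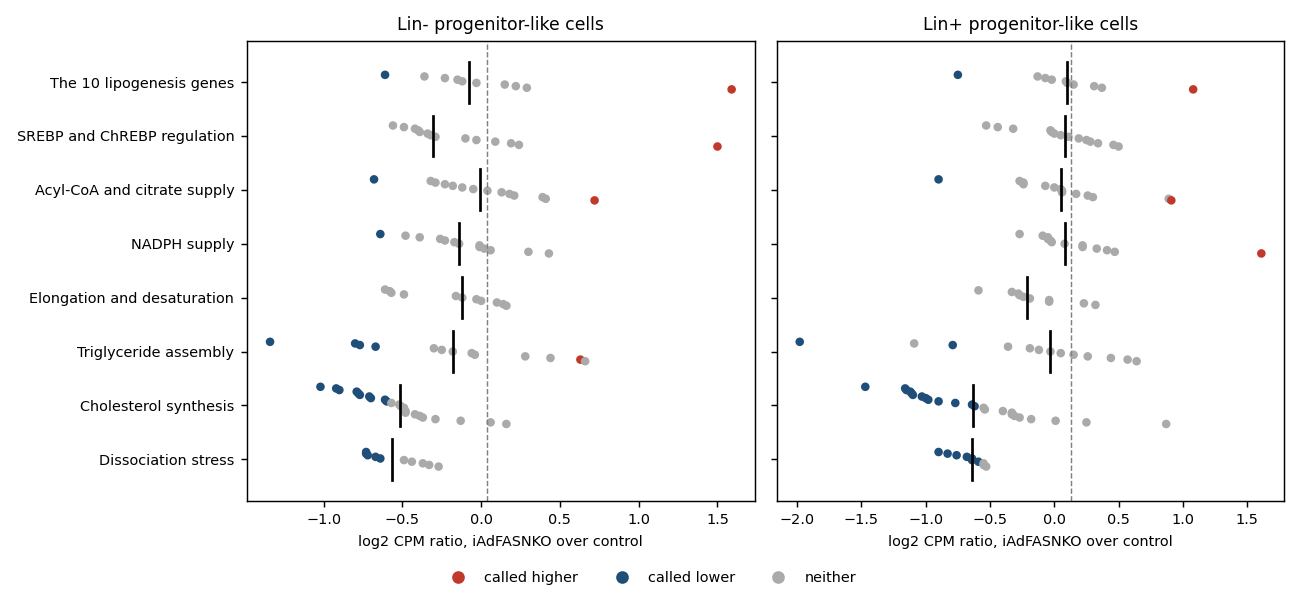
Log2 CPM ratio of iAdFASNKO over control in progenitor-like cells for each measured gene (points) of the 10 lipogenesis genes and of 7 related lists, in Lin- and Lin+; black bars are list medians and the dashed line is the median of all measured genes (0.04 and 0.13). The cholesterol synthesis and digestion-response lists lie to the left, with medians of -0.51 and -0.57 in Lin- and of -0.63 and -0.64 in Lin+, and the 10 genes lie around the dashed line except Fasn and Mlxipl.

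Within each library, Hmgcs1 and Insig1 were compared between cells with and without a Fasn UMI. Both genes were chosen after their values were seen, and no share over all genes was computed. Among thinned progenitor-like cells, those with a Fasn UMI (160 of 2043 in Lin- control) had 1.59 times (1.37 to 1.84) the Hmgcs1 CPM of the rest. The ratio was 2.10 (1.72 to 2.55) in Lin- iAdFASNKO, 1.48 (1.06 to 2.01) in Lin+ control and 1.88 (0.952 to 3.39) in Lin+ iAdFASNKO, where 52 cells had a Fasn UMI. Insig1 had ratios of 1.80 (1.44 to 2.23), 1.55 (1.10 to 2.13), 1.55 (0.946 to 2.42) and 1.61 (0.677 to 3.27) in the same order. The intervals lay above 1 for both genes in both Lin- libraries, and in Lin+ only for Hmgcs1 in control. For Srebf1 all 4 intervals held 1, at 0.961 (0.485 to 1.73), 1.02 (0.400 to 2.16), 1.27 (0.657 to 2.25) and 0.563 (0.115 to 1.68). Of the 36 gene and library comparisons for the other 9 genes, 2 had intervals without 1, Elovl6 in Lin- control (2.12, 1.01 to 4.07) and Acss2 in Lin+ control (3.09, 1.13 to 7.27). In Lin- iAdFASNKO alone the adipocyte markers were also higher in the Fasn-positive cells, with a summed ratio of 4.71 (3.11 to 6.97) against 1.09 (0.529 to 2.02) in Lin- control. Most of that sum was Car3, with 29 of 33 UMIs.

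A cluster of progenitor-like cells led by Cxcl1, Ccl7 and Hmgcs1, with Insig1 and Msmo1 among its 10 leading genes, held 27.4% and 23.1% of Lin- progenitor-like cells (control, iAdFASNKO) and 7.31% and 2.20% of Lin+ ones. Fasn in it was at 54.5 CPM against 39.1 CPM in the other progenitor-like cells of Lin- control, a ratio of 1.40 (1.23 to 1.59). In Lin- iAdFASNKO it was at 32.8 and 27.3 CPM (1.20, 0.959 to 1.5), in Lin+ control at 43.3 and 41.0 CPM (1.05, 0.782 to 1.40) and in Lin+ iAdFASNKO at 33.2 and 24.3 CPM (1.37, 0.674 to 2.49). The part of this cluster's share in the Fasn difference was not tested. Scd2 went the other way in the cluster, with ratios to the other cells of 0.727 (0.660 to 0.799), 0.619 (0.542 to 0.705), 0.606 (0.499 to 0.731) and 0.462 (0.298 to 0.685) in the 4 libraries.

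Across cell classes the genes shared part of a pattern. In Lin- Schwann-like cells had the highest or next highest level in both libraries for every gene but Acly and Mlxipl. They had 40.2 and 79.7 CPM of Acaca, 31.3 and 62.0 CPM of Me1 and 22.4 and 23.6 CPM of Acss2 (control, iAdFASNKO). Neighbours in these orders often overlapped. The highest Fasn values in Lin- were those of nerve sheath cells, though neighbours in the order overlapped: Schwann-like cells had 58.1 CPM (31.0 to 99.4) for control and 82.6 CPM (54.9 to 119) for iAdFASNKO, and perineurial-like cells had 58.4 CPM (31.1 to 99.9) and 74.2 CPM (46.5 to 112). In the Lin- control library these did not stand apart from the 44.1 CPM of progenitor-like cells, since the intervals overlap, and in Lin- iAdFASNKO they did stand apart from its 28.8 CPM. They did not stand apart from NK-like cells of Lin- control (43.5 CPM, 16.0 to 94.8) or T cell-like cells of Lin- iAdFASNKO (53.2 CPM, 24.3 to 101). The perineurial-like cluster, named by Itgb4 and Cldn1, also had Schwann cell markers on. Lower levels were found in pericyte- or smooth muscle-like cells, with 14.3 and 11.2 CPM, and in endothelial-like cells of Lin-, with 10.0 and 7.24 CPM. In Lin+ control the order ran from progenitor-like (41.2 CPM) through NK-like (27.2 CPM), cDC2-like (24.9 CPM), T cell-like (24.4 CPM) and B cell-like cells (18.3 CPM), and neighbours in it overlapped. In Lin+ iAdFASNKO progenitor-like cells did not lead. It ran from cDC2-like (27.9 CPM) through NK-like (26.0 CPM), progenitor-like (24.6 CPM) and T cell-like cells (23.4 CPM), with overlapping neighbours, to B cell-like cells (13.3 CPM). Macrophage-like cells were near 0, with 3 Fasn UMIs in 139 control cells and none in 66 iAdFASNKO cells.

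In Lin+ the highest Scd1 level was in B cell-like cells, apart from every other class. The level was 687 CPM (630 to 749) for control and 532 CPM (510 to 554) for iAdFASNKO B cell-like cells (ratio 0.774, 0.703 to 0.853), against 84.7 and 80.5 CPM in Lin+ progenitor-like and 19.3 and 9.45 CPM in Lin+ T cell-like cells. After thinning, 67.8% and 61.6% of B cell-like cells had a Scd1 UMI, against 3.47% and 1.42% of T cell-like cells. Perineurial-like cells were at 202 and 246 CPM and Schwann-like cells at 161 and 139 CPM. The same B cell-like cells held almost no Elovl6, at 1.31 and 0.951 CPM, and no Me1 UMI in 295 and 1212 cells, where a floor of 3 counts is 3.92 and 0.713 CPM and the exact Poisson upper limits are 4.82 and 0.877 CPM. Scd2, in contrast, was highest in Schwann-like cells, at 1476 CPM (1321 to 1644) and 1809 CPM (1668 to 1958), followed by perineurial-like cells at 440 CPM (357 to 537) and 546 CPM (465 to 637). Elovl6 was also highest in Schwann-like cells of Lin-, at 116 CPM (75.9 to 170) and 109 CPM (76.9 to 150), against 18.6 and 22.8 CPM in progenitor-like cells. In Lin- control its interval overlapped that of NK-like cells (36.3 CPM, 11.8 to 84.7). In Lin-, Acly was highest in lymphatic endothelial-like cells, at 177 CPM (131 to 234) in 36 cells and 197 CPM (134 to 279) in 64 cells. In Lin- iAdFASNKO its interval overlapped that of NK-like cells (79.1 CPM, 21.6 to 203). Lymphatic endothelial-like cells were too few to show in Lin+, where NK-like cells led in control at 117 CPM (78.6 to 166). Srebf1 was counted in every class shown except migratory dendritic-like cells (0 UMIs in 41 cells), for example at 53.7 and 64.9 CPM in Schwann-like and 26.1 and 19.6 CPM in pericyte- or smooth muscle-like cells. Acss2 in T cell-like cells of Lin+ was at 20.3 CPM (12.4 to 31.4) and 28.6 CPM (23.4 to 34.7), and only the latter stood apart from the 12.0 and 10.9 CPM of progenitor-like cells. Mlxipl was rare outside progenitor-like cells, with at most 4 UMIs in any other class shown.

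**Figure D5:**
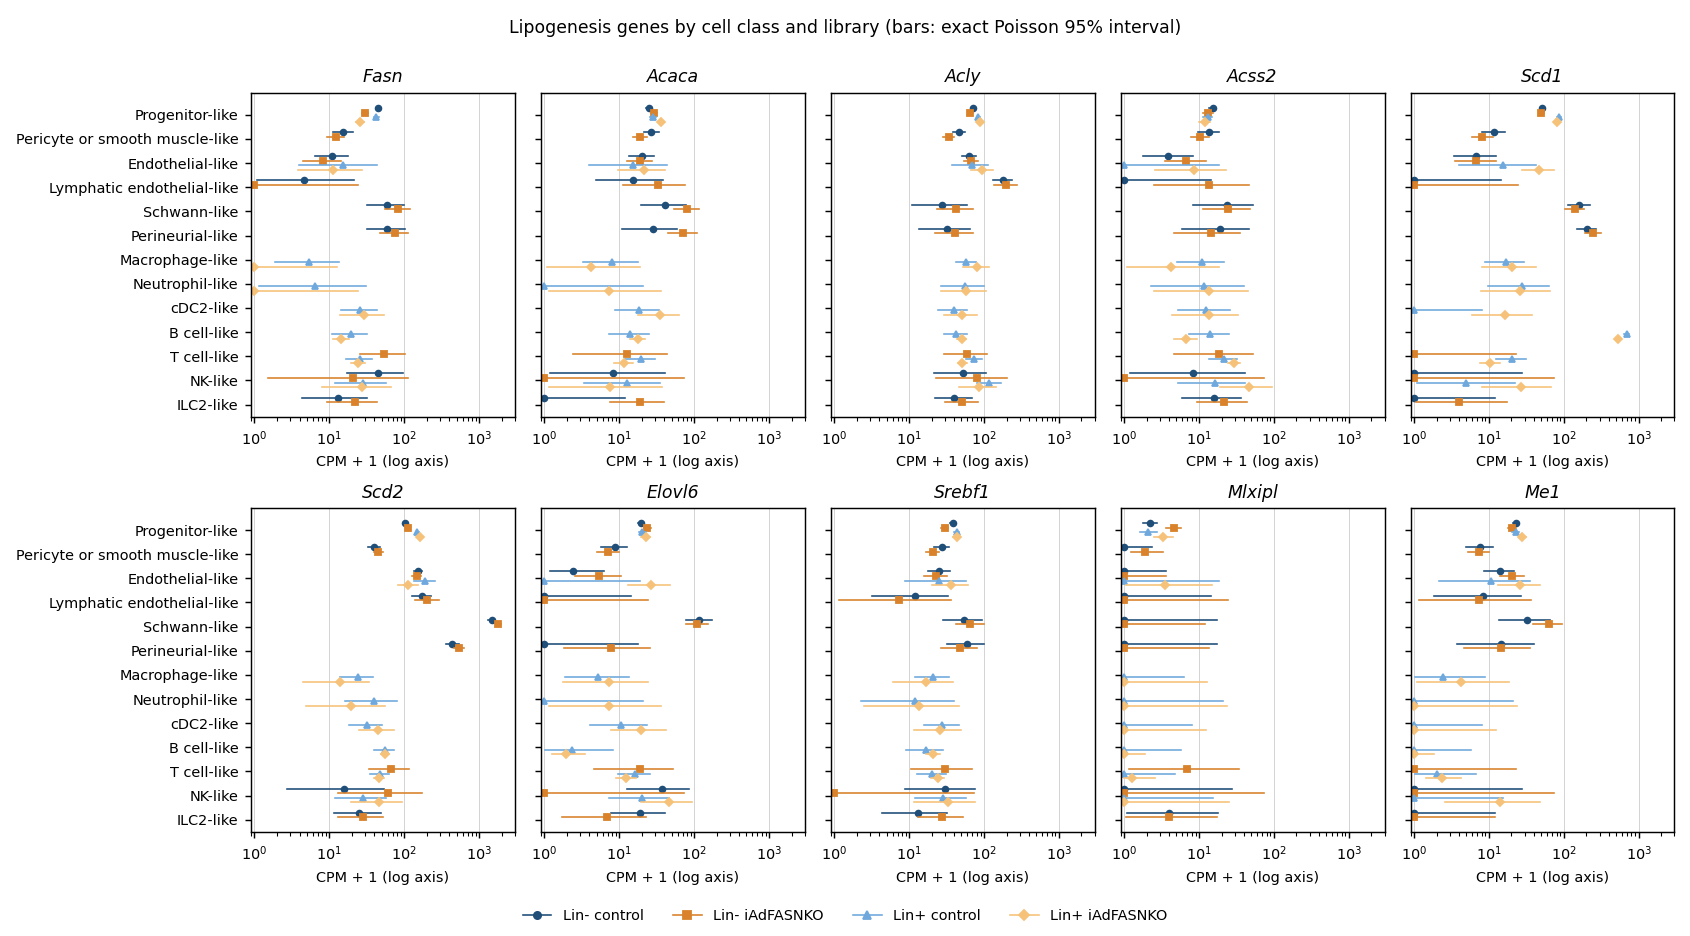
CPM + 1 (log axis) of each of the 10 genes by cell class and library, with exact Poisson 95% intervals as bars, for 13 classes, where a library had at least 30 cells of the class (epithelial-like and migratory dendritic-like cells, with 1 such library each, are not drawn). Scd1 stands out in B cell-like cells (687 and 532 CPM) and Scd2 in Schwann-like cells (1476 and 1809 CPM). Acly is highest in lymphatic endothelial-like cells of Lin- (177 and 197 CPM), where the iAdFASNKO interval overlaps that of NK-like cells.

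Outside progenitor-like cells the genotypes gave few calls. In 14 comparisons of a class within a fraction, 57 of 140 gene values were measured, 1 was called higher and 2 lower, where 4.52% and 6.76% of all measured genes were. Acaca was higher in perineurial-like cells, at 27 and 70.8 CPM (ratio 2.63, 1.03 to 7.95, from 6 and 21 UMIs; 7.35% of genes called higher). Scd1 was lower in T cell-like cells of Lin+ (0.490, 0.271 to 0.909; 11.3% of genes called lower), and the ratio was 1.12 under a looser cell filter. Scd2 was lower in endothelial-like cells of Lin+, at 187 CPM in 40 and 111 CPM in 79 cells (0.596, 0.379 to 0.942; 7.52% lower). Fasn was measured in 7 of these comparisons and called in none, with ratios from 0.723 to 1.42. The interval held the progenitor ratio of the same fraction in 5 of the 7, for example 0.400 to 1.42 in B cell-like cells. It did not hold it in T cell-like cells of Lin+ (0.602 to 1.58) and in Schwann-like cells of Lin- (0.712 to 2.99). Whether the genotype difference itself differs between classes was not tested.

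The genes whose class and library sums followed Fasn most closely were Paxx (Pearson r = 0.73 of log2(CPM + 1)), Phgdh (0.71), Fbxl15 (0.71), Abca2 (0.70) and Mlec (0.70), out of 12209 genes over 35 class and library sums. Classes of 1 library share its depth and free RNA, and the correlations are a description. Of the lipogenesis genes Elovl6 (0.48) and Srebf1 (0.47) came closest, followed by Acaca (0.38), Scd2 (0.38), Acss2 (0.34), Scd1 (0.28) and Me1 (0.22), and Acly ran the other way (-0.36). Some of the sums rest on few UMIs, such as 3 and 0 Fasn UMIs in macrophage-like cells, and counting error can lower a correlation. These values therefore do not show how closely the place of Fasn among cell classes follows that of the other enzymes.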

How the data were processed

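The authors deposited raw UMI counts of each gene in each cell barcode, without normalization. Cell Ranger 3.1.0, Seurat 3.0 and mm10 stand in the submitters' processing notes, and the matrix header names software version 3.0.2. Neither the annotation release nor a barcode filter applied earlier is stated in the sources used here. The barcode tag gives the fraction, per the labels, and the genotype was read from the name of each matrix.

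The 10 genes, the pathway lists, the markers and the rule for named genes were chosen with earlier results of these data known. Cells needed 300 genes, 500 UMIs and a mitochondrial share of no more than 10%; 330 to 1327 barcodes of a library exceeded the mitochondrial limit, most in Lin+ iAdFASNKO. Scrublet (scanpy 1.11.5, expected rate 0.06) marked 0.967% and 2.24% of Lin- and 0.240% and 1.51% of Lin+ cells (control, iAdFASNKO) as doublets, which were removed. All cells were clustered together (2000 variable genes without the 10 genes and the lists, 30 components, 20 neighbours, Leiden resolution 1, leidenalg 0.10.2), and progenitor-like cells again (20 components, resolution 0.6). A cluster was named where at least 3 and 50% of a class's markers were on and its leading genes did not go against the name. Classes are shown from 30 cells, and some smaller or haemoglobin-led clusters stayed unnamed. Different subclusters hold most of the progenitor-like class in different libraries.

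Counts were summed per class and library. CPM carry exact Poisson 95% intervals, ratios exact conditional binomial intervals and shares Clopper-Pearson intervals (scipy 1.17.1). UMIs of 1 pooled library are not independent mice. The call rule was tested on counts simulated from the progenitor-like sums of the control libraries, with counting error only. That test does not cover differences between pools of mice or in cell mix. Named were all 10 genes, the called genes with the 3 largest and 3 smallest ratios of each list, the adipocyte markers and the 5 genes most correlated with Fasn; Insig1 and Hmgcs1 in the comparison of Fasn-positive cells, and the genes that lead clusters, were picked after their values were seen. Some genes that the rule names are not reported here. Gene coordinates are from GENCODE M21 (mm10), joined by gene identifier, and promoter letters from RefSeq. Alternatives covered the cell filter, doublets, classes, level, scaling, single cells, adipocyte RNA, depth, progenitor mix, fold and UMI minimum, and, chosen after seeing the data, shared barcodes.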

Additional observations from a re-analysis of the deposited data

How the results depend on the processing

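The Fasn ratio in progenitor-like cells stayed below 1 under all 12 alternatives in each fraction, from 0.586 to 0.680 in Lin- and from 0.525 to 0.704 in Lin+. The highest Lin+ value, 0.704, came with subclusters weighted equally, where no gene of the 10 was called lower (0). In Lin- the count of lower genes was 0 without cells holding an adipocyte marker UMI, which left out 296 of 2191 control and 208 of 2227 iAdFASNKO progenitor-like cells; with subclusters weighted equally it was 1, but the gene was Scd1 and not Fasn. At a fold of 2 it was 0 in both fractions. The count of higher genes in Lin+ was 0 under the stricter cell filter, with the mean of scaled cells, with ratios divided by the median ratio of all genes, and with cells thinned to 2000 UMIs, and 1 otherwise. Scd1 in T cell-like cells of Lin+ reversed from 0.490 to 1.12 under the looser cell filter. The cause of these changes was not tested. Of 788 alternative values of the 75 measured ratios other than those of Fasn in progenitor-like cells, 750 moved by less than their counting interval, 37 by more and 1 reversed. Only called ratios could be counted as reversed. Uncalled ratios that crossed 1, such as Acaca in Lin- progenitor-like cells as given above, are counted by the size of their move. Intervals for equal weights and for scaled cells are counting approximations on a log scale. Under the stricter filter no cluster was named B cell-like or T cell-like, so those ratios have no value there. No paired analysis was possible because each group has 1 library. Depth limits Mlxipl most, with 16 to 47 UMIs a library, and Fasn outside progenitor-like cells.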
